A study of Mus musculus with 8 samples.

Results

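Guanylate-binding proteins (GBPs) are large interferon-inducible GTPases, and the 8 family members Gbp2, Gbp3, Gbp4, Gbp5, Gbp6, Gbp7, Gbp8 and Gbp9 are described here. They are 8 of the 49315 genes in the count table and 8 of the 13051 genes tested. They were chosen by the difference of their counts between the groups compared below, so these differences between groups are given as a description with standard errors and without a test. The libraries came from bone marrow-derived macrophages (BMDMs), primary cells grown from C57BL/6 mouse marrow in medium to which M-CSF, the macrophage growth factor, was added at 10 ng/ml. With Lipofectamine 3000, 4 cultures received a gapmeR against MAARS, a macrophage long noncoding RNA listed by Ensembl as Gm14461, and 4 received negative control gapmeR #1. A gapmeR is an antisense oligonucleotide through which RNase H cuts the RNA it pairs with. All 8 libraries share the strain, growth factor and transfection reagent, no untransfected culture was analysed here, and the amount of gapmeR is written as 25 nM in the labels and as 25 nmol in the methods. Ribodepleted total RNA was read as pairs of 100 nt. Because nothing in the labels says whether the cultures came from separate mice, p-values measure only the spread between these libraries, which may be technical.

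GBPs belong to the dynamin superfamily. They bind GTP, assemble into coats on pathogen vacuoles, on bacteria and on damaged membranes, and some carry a C-terminal lipid that holds them there. In macrophages they are known for restricting intracellular bacteria and Toxoplasma, together with the immunity-related GTPases (IRGs), and for bringing bacterial lipopolysaccharide and DNA to inflammasomes. Their genes are classical targets of interferon. Type II interferon acts on gamma-activated sequences (GAS), and type I interferon acts on interferon-stimulated response elements (ISREs), which a complex with Stat2 and Irf9 binds.

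The members lay in 2 clusters, given on GRCm38 from GENCODE M21. Gbp5 (ENSMUSG00000105504, chr3:142493978-142522344), Gbp7 (ENSMUSG00000040253, chr3:142530342-142550149), Gbp3 (ENSMUSG00000028268, chr3:142560026-142573209) and Gbp2 (ENSMUSG00000028270, chr3:142620602-142638008) stood on the + strand of a chromosome 3 cluster that spans 175 kb and holds 6 annotated Gbp genes. Gbp8 (ENSMUSG00000034438, chr5:105014150-105139540), Gbp9 (ENSMUSG00000029298, chr5:105077630-105139539), Gbp4 (ENSMUSG00000079363, chr5:105115767-105139586) and Gbp6 (ENSMUSG00000104713, chr5:105270702-105293698) stood on the − strand of a chromosome 5 cluster that spans 332 kb and also holds 6. Coding sequences of the chromosome 5 members were 89.6% to 92.9% identical over their 6 pairs, against 61.6% to 78.3% over the 6 pairs on chromosome 3 and 61.1% to 75.0% between the clusters. Gbp4, Gbp8 and Gbp9 overlapped on the same strand, although shared exonic bases made up at most 1.77% of any of them. Same-strand overlap with other genes was larger for Gbp6 (29% of its exonic bases, with Gm43302) and Gbp7 (11.3%, with Gm43802). The effect of these overlaps on counts and on levels per kilobase was not tested.

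RefSeq promoter windows of 300 bases on GRCm38.p6 were found for the 4 chromosome 3 members, with a second window for Gbp3. Gbp4, Gbp6, Gbp8 and Gbp9 had no entry. The windows are shown because these genes were lower together and because their interferon motifs can be read in them. The letters GAAANNGAA, the core of an ISRE, and TTCNNNGAA, a GAS, were searched on both strands, and capitals mark their matches. ISRE matches all lay on the opposite strand and so appear as their reverse complement, and no ISRE match overlapped a GAS match.
Gbp2, chr3:142620413-142620712, + strand: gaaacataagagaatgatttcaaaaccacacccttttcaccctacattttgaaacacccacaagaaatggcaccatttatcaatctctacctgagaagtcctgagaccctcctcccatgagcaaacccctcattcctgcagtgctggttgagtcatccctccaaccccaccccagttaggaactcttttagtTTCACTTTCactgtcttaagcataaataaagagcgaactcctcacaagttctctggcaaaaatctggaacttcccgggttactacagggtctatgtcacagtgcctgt
Gbp3, chr3:142559794-142560093, + strand: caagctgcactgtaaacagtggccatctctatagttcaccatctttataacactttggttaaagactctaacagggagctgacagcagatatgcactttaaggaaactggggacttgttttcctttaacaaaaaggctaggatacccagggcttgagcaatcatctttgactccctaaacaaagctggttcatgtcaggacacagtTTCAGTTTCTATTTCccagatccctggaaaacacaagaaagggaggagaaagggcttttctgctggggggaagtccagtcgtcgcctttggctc
Gbp5, chr3:142496684-142496983, + strand: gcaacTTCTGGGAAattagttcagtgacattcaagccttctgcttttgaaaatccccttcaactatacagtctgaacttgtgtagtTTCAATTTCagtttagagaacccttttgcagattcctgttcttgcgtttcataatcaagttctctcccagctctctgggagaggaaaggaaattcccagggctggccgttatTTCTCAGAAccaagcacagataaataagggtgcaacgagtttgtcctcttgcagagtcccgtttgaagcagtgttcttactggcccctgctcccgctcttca
Gbp7, chr3:142530086-142530385, + strand: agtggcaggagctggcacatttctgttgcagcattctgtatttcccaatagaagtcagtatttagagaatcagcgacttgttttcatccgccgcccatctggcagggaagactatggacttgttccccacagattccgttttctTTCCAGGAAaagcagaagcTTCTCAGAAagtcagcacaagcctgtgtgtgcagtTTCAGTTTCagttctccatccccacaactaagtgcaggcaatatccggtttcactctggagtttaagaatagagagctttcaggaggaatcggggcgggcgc
An ISRE core occurred in 4 of the 5 windows of members, at least once for each of the 4 genes, whereas 8.56% of all 32851 windows in the table held one. Counted to the leftmost base from the start site, the matches stood at -58 in Gbp2, -44 and -38 in Gbp3, -164 in Gbp5 and -52 in Gbp7. GAS letters occurred in Gbp5, at -245 and -52, and in Gbp7, at -106 and -87, and in 8.30% of all windows. The windows of Gbp2 and Gbp3 held no GAS match. A match of these letters is a description of the sequence and not a binding site.

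The libraries held 19287279 to 24541205 counts on genes, and every MAARS gapmeR library held more than every control library. MAARS itself lay between 12.2 and 15.1 CPM in the 4 control libraries and between 5.85 and 7.71 in the 4 MAARS gapmeR libraries, which was lower by edgeR's quasi-likelihood test (log2 fold change -0.95 ± 0.112 SE, Benjamini-Hochberg adjusted p = 5.8e-05). CPM are read counts scaled to a common library total, here with TMM factors (trimmed mean of M values). The 9 macrophage markers summed to 14500–17778 CPM in control and 18110–21514 CPM in MAARS gapmeR libraries. Most of both sums was Lyz2, with means of 9402 and 13170 CPM, so they mainly follow that gene. Among the 9 markers 6 rose and 2 fell, against 21.3% and 24.0% of all genes tested. One of the 2 that fell, Fcgr1, is a high-affinity IgG receptor and itself interferon-inducible. It fell by 2.09 on the log2 scale (adjusted p = 7.12e-06). Markers of T and NK cells summed to 66.0–85.9 CPM in control and 40.9–51.7 CPM in MAARS gapmeR libraries, nearly all of it Cd4, with Cd3g and Gzma at 0 throughout. Cd4, the only gene of this list that was tested, fell by 0.68 on the log2 scale (edgeR adjusted p = 0.000126). All other genes of the list, Cd3d, Cd3e and Cd8a among them, had at most 5 counts in any library. B cell markers summed to at most 2.46 CPM, and dendritic cell markers to at most 2.76 CPM. In bulk RNA, fewer cells of a type and less RNA per cell cannot be told apart.

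All 8 GBP genes were lower with MAARS gapmeR, and for all 8 the 4 MAARS gapmeR libraries lay below the 4 control libraries. Of the 13051 genes tested, 24.0% were called lower and 21.3% higher at an adjusted p under 0.05, and 22.8% had all 4 MAARS gapmeR libraries below all 4 control libraries. Because this contrast chose the members, their counts are not read against those shares. The median log2 fold change was -2.68 over the members and 0.01 over all genes tested. Values ran from -5.48 for Gbp4 to -1.54 for Gbp7, and 1.59% of the genes tested had a value below that of Gbp7.

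**Figure D1:**
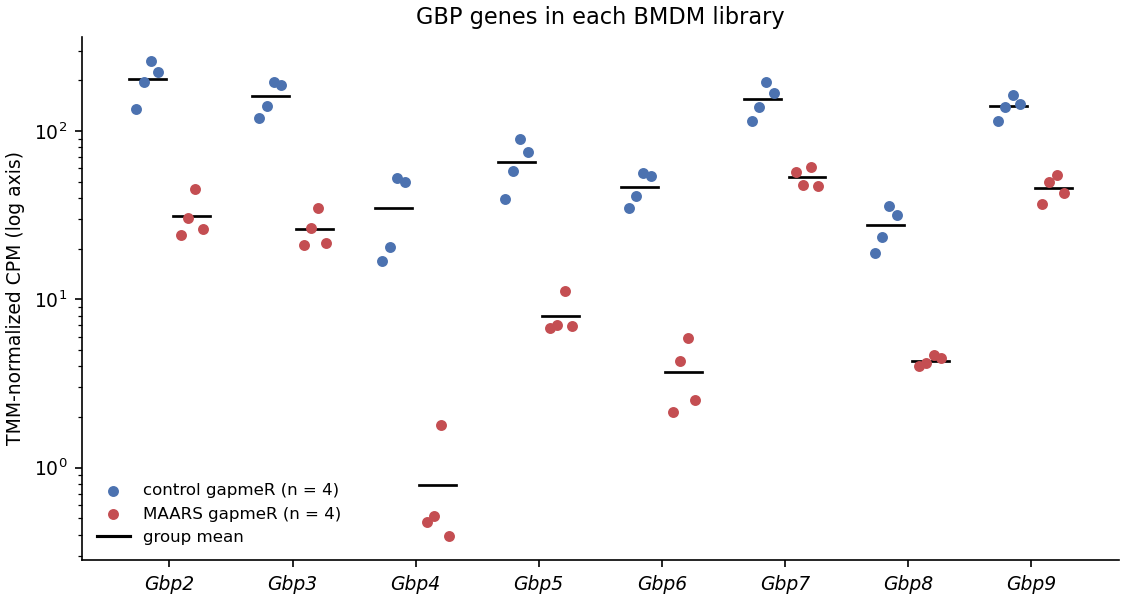
TMM-normalized CPM (log axis) of the 8 GBP genes in each library, with blue points for control gapmeR, red points for MAARS gapmeR and black lines for the mean of 4 libraries. For every gene all red points lie below all blue points, with the widest gap for Gbp4 and the narrowest for Gbp7.

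On chromosome 3, Gbp2 is recruited to pathogen vacuoles and takes part in releasing bacterial DNA to the Aim2 inflammasome. Gbp2 was present at 135.0, 197.0, 262.7 and 225.3 CPM in control replicates 2, 5, 6 and 7, and at 24.2, 30.3, 45 and 26.3 CPM in MAARS gapmeR replicates 9, 11, 13 and 15. The lowest control library held 3 times the highest MAARS gapmeR library. The fitted difference was -2.70 ± 0.221 (log2 fold change ± SE, n = 4 per group), or 6.52-fold lower.

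Gbp3, the member closest to Gbp7 in coding sequence on this chromosome (78.3% identity), showed nearly the same size of difference as Gbp2. Its levels were 119.6, 140.6, 196.8 and 188.7 CPM in the control libraries and 21, 26.7, 35.1 and 21.6 CPM in the MAARS gapmeR libraries, in the same order of replicates. Again the groups did not overlap, and the difference was -2.63 ± 0.188, or 6.18-fold lower.

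Gbp5 has been linked to activation of the Nlrp3 and Aim2 inflammasomes. It was measured at 39.7, 57.9, 89.6 and 74.8 CPM in control and at 6.76, 7, 11.2 and 6.93 CPM in MAARS gapmeR libraries. MAARS gapmeR replicate 13 stood apart from the other 3, which differed little. The log2 fold change of Gbp5 was -3.04 ± 0.247 (8.22-fold lower), the largest of the 4 on chromosome 3.

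Gbp7 is known for helping to assemble the phagocyte NADPH oxidase on vacuoles. It changed least of the 8, from 115.6, 140.0, 196.9 and 168.6 CPM in control to 57.1, 47.7, 61.5 and 47.5 CPM in MAARS gapmeR libraries. Its lowest control library still held 1.88 times its highest MAARS gapmeR library. The log2 fold change was -1.54 ± 0.147 (2.91-fold lower). By position Gbp7 stands between Gbp5 and Gbp3, which differed more.

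On chromosome 5, Gbp4, a member reported to bind the transcription factor Irf7, showed the largest difference of the family. It was present at 16.9, 20.4, 52.8 and 49.9 CPM in control libraries and at 0.473, 0.517, 1.79 and 0.390 CPM in MAARS gapmeR libraries. The MAARS gapmeR values rested on 10, 13, 39 and 9 counts, and 39 counts came from replicate 13. Gbp4 passed the filter on low counts through the control libraries, so the size of its fold change is less certain. The log2 fold change was -5.48 ± 0.527 (44.5-fold lower), and it was -4.57 when control replicates 6 and 7, the libraries with the highest Gbp4, were left out together. Without 1 library at a time it ranged from -6.23 to -5.22, the former without MAARS gapmeR replicate 13.

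Gbp6 followed with 34.8, 41.0, 56.5 and 54.3 CPM in control and 2.13, 4.30, 5.88 and 2.51 CPM in MAARS gapmeR libraries. Its log2 fold change was -3.65 ± 0.255, or 12.5-fold lower. The Gbp6 value is the least certain in identity, since 64.5% of the stretches of 100 nt in its transcripts also occur in other genes, chiefly Gm43302 and Gbp10. Gm43302 had 0 counts in every library, and the handling of multi-mapping reads is not given in the sources used here.

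Gbp8 lay at 18.9, 23.5, 35.9 and 31.6 CPM in control libraries. In the MAARS gapmeR libraries it lay at 4.02, 4.18, 4.64 and 4.46 CPM, the tightest group of any member, with a highest value 1.15 times the lowest. The log2 fold change was -2.67 ± 0.189 (6.34-fold lower).

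Gbp9 was measured at 115.2, 139.4, 163.5 and 145.0 CPM in control and 36.7, 50, 54.9 and 43.1 CPM in MAARS gapmeR libraries. With a log2 fold change of -1.61 ± 0.126 (3.05-fold lower) it changed about as little as Gbp7. Each cluster therefore held 1 member with a small difference and 3 with larger ones, and the medians were -2.67 on chromosome 3 and -3.16 on chromosome 5. Stretches of 100 nt shared with other genes made up 10% for Gbp7, chiefly with Gm43802, at most 4.39% for Gbp3, Gbp4, Gbp5, Gbp8 and Gbp9, and 0 for Gbp2.

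Genes on either side of the clusters, some of them far away, were set against the members. Of the 3 nearest tested protein-coding genes on each side that are not Gbp genes, the chromosome 3 cluster had Pdlim5 (log2 fold change 0.12, adjusted p = 0.0827), Unc5c (-0.08) and Rap1gds1 (0.35, adjusted p = 0.000418) before it. After it stood Kyat3 (-0.02), Gtf2b (0.10) and Pkn2 (-0.18, adjusted p = 0.0219). On chromosome 5, Abcg3 rose (0.42, adjusted p = 0.000163), BC005561 fell (-0.42, adjusted p = 0.00297), and Zfp951 had a value of -0.38 (adjusted p = 0.104). On the far side Lrrc8b (-0.19, adjusted p = 0.0237) and Lrrc8c (-0.56, adjusted p = 9.1e-05) fell, and Lrrc8d rose (0.21, adjusted p = 0.0121), all by edgeR. The nearest on each side stood 31.4 to 98.3 kb from the cluster edges. Others were much farther, with Lrrc8d at 353 kb, BC005561 at 492 kb, Unc5c at 659 kb and Rap1gds1 at 3420 kb. The neighbours thus moved in both directions and by at most 0.56 on the log2 scale, compared with at least 1.54 for the GBP genes. The calls of Pkn2 and Lrrc8b were lost with upper-quartile factors and without single libraries.

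**Figure D2:**
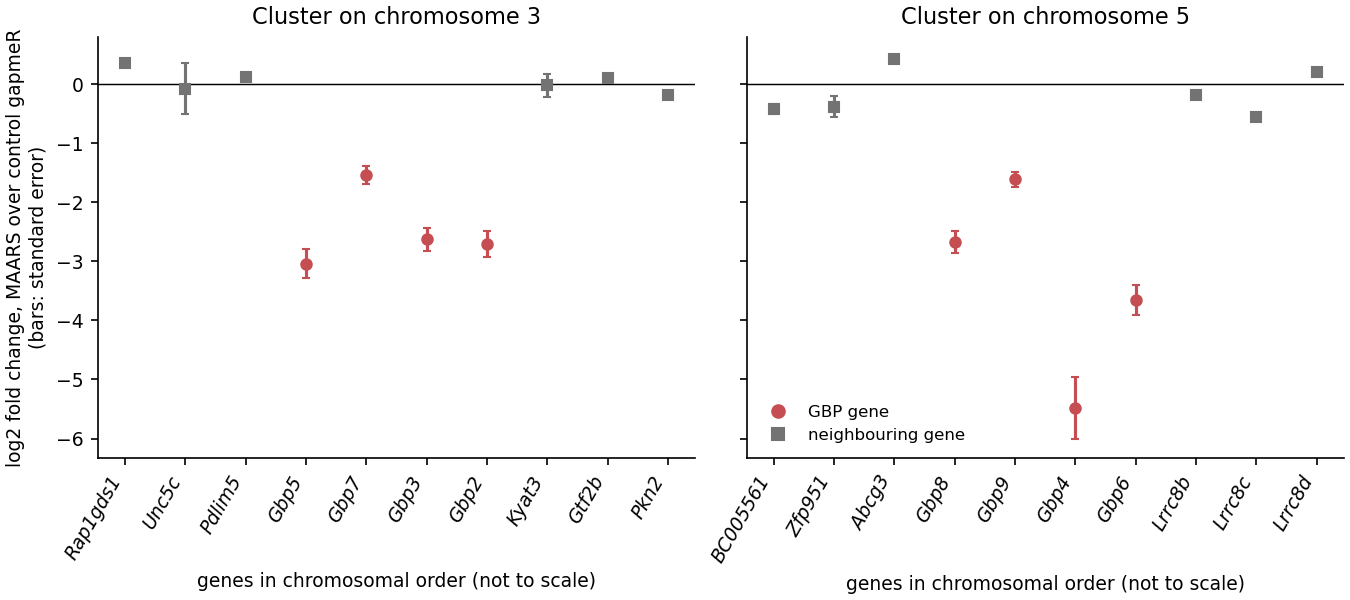
Log2 fold change (MAARS over control gapmeR, bars: standard error) of the GBP genes (red circles) and of the 3 nearest tested protein-coding neighbours on each side (grey squares), in chromosomal order and not to scale. Neighbours lie between -0.56 and 0.42, whereas the GBP genes lie between -5.48 and -1.54.

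The other Gbp genes in the table were Gbp2b, Gbp10, Gbp11 and the pseudogene Gbp2-ps. Gbp2b, a chromosome 3 gene 82.5% identical to Gbp2 in coding sequence, fell from 16.4 ± 6.79 to 1.90 ± 0.399 CPM (SD, n = 4 per group; log2 fold change -3.11, adjusted p = 1.66e-05 by edgeR). Gbp10 had 15, 31, 46 and 42 counts in the control libraries and 0, 0, 0 and 1 in the MAARS gapmeR libraries. Gbp11 had 64, 64, 133 and 114 counts in control and 2, 0, 2 and 0 in MAARS gapmeR libraries. Both passed the filter on low counts through the control libraries alone, so their counts are given as a description, and a fitted fold change at counts this close to 0 depends on the prior count. Gbp10 shared 73.5% of its stretches of 100 nt with other genes, chiefly Gm43302 and Gbp6. Gbp2-ps had 0 counts in every library.

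Levels of different genes were compared per kilobase of merged exons. In control libraries Gbp2 was highest at 81.5 ± 21.4 CPM per kilobase (SD, n = 4), followed by Gbp3 (49.4), Gbp7 (27.7), Gbp9 (27.2), Gbp5 (9.87), Gbp8 (7.98), Gbp6 (7.83) and Gbp4 (4.67). Between neighbours in this order, the ranges over the 4 libraries did not overlap for Gbp3 and Gbp7 and for Gbp9 and Gbp5. Within each library, Gbp2 was also above Gbp3, Gbp5 above Gbp8 and Gbp6 above Gbp4 in 4 of 4, whereas Gbp7 and Gbp9, and Gbp8 and Gbp6, changed places between libraries. In MAARS gapmeR libraries the order was Gbp2 (12.5 ± 3.74), Gbp7 (9.52), Gbp9 (8.92), Gbp3 (8), Gbp8 (1.26), Gbp5 (1.20), Gbp6 (0.622) and Gbp4 (0.106), with no overlap of ranges between Gbp3 and Gbp8, Gbp5 and Gbp6, and Gbp6 and Gbp4. The other neighbours kept their order in 3 of the 4 libraries. Gbp3 thus moved from rank 2 to rank 4 and Gbp7 from rank 3 to rank 2, within levels that overlapped in MAARS gapmeR libraries.

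The summed level of the 8 genes was 152.7, 198.4, 271.8 and 241.6 CPM per kilobase in the control libraries and 35.9, 41.4, 54.5 and 36.7 in the MAARS gapmeR libraries. The means were 216.1 ± 51.9 and 42.1 ± 8.59 (SD, n = 4), a 5.13-fold lower sum. The make-up of the sum differed as well. Gbp2 and Gbp3 together made up most of it in every control library, with mean shares of 37.5% ± 1.87 and 22.9% ± 1.18, and these shares were 29.3% ± 2.57 and 18.9% ± 1.00 with MAARS gapmeR. Gbp7 and Gbp9, the least reduced members, went from 12.8% ± 0.468 and 12.8% ± 1.48 to 23.0% ± 3.78 and 21.3% ± 1.98. Gbp4 went from 2.05% ± 0.726 to 0.231% ± 0.139. With the length of the longest annotated transcript in place of merged exons, Gbp4 made up 3.03% in control, and Gbp5 7.10% in place of 4.49%.

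**Figure D3:**
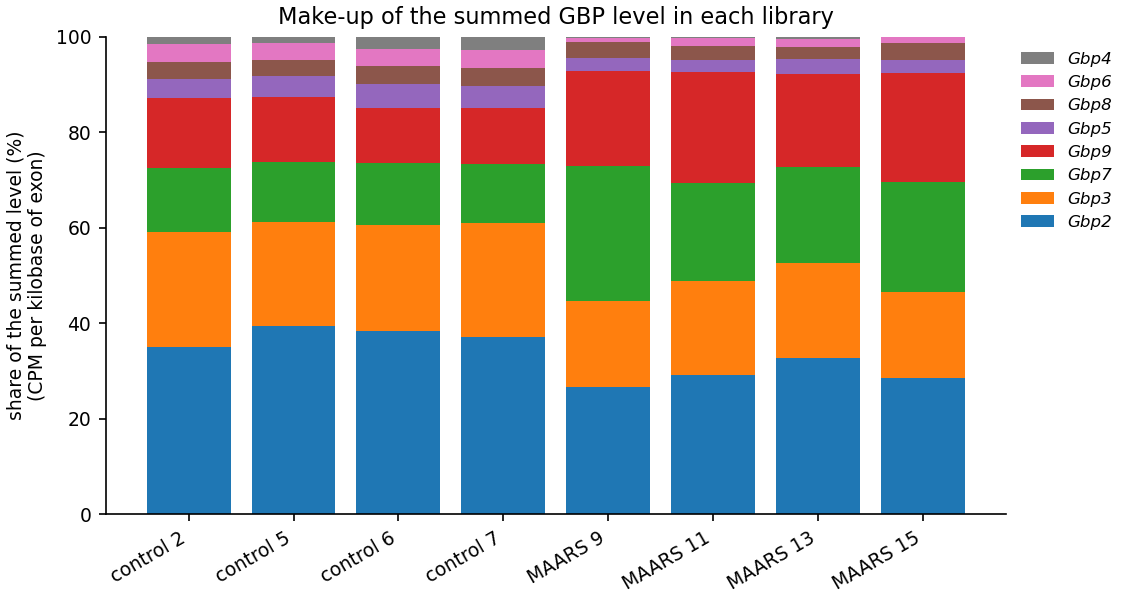
Share (%) of each GBP gene in the summed GBP level (CPM per kilobase of exon) in each of the 8 libraries. Gbp2 and Gbp3 (the lower 2 segments) take most of every control bar, and Gbp7 and Gbp9 widen in all 4 MAARS gapmeR bars.

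The 8 genes kept nearly the same order of libraries within each group. Control replicate 6 was highest and control replicate 2 lowest for 8 of 8, an order found in 13.2% of the genes tested. Control replicates 6 and 7 both exceeded replicates 2 and 5 for 8 of 8 members and for 22.5% of the genes tested. The same held for Gbp2b, Gbp10, Gbp11, Mx1, Mx2 and Irf7. It also held for most tested IRGs, Tgtp2 among them, but not for Gm12250, so it was not particular to the members. MAARS gapmeR replicate 13 was highest for 8 of 8, against 24.7% of the genes tested, and the lowest was replicate 9 for 6 and replicate 15 for 2. MAARS RNA stood at 7.71, 6.41, 7.31 and 5.85 CPM in replicates 9, 11, 13 and 15, on 163, 161, 159 and 135 counts. At these counts the libraries could not be ranked firmly by MAARS RNA, and its relation to the GBP levels was not tested. The spread within the control group was widest for Gbp4, whose highest control library was 3.12 times the lowest, and narrowest for Gbp9 (1.42 times). Over the 8 members this ratio and the log2 fold change had a Spearman rho of -0.55, a description over genes that share the same libraries.

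Markers of other cell types followed this order in part. The neutrophil markers, among them S100a8, S100a9 and Ltf, summed to 98.4, 71.8, 122.4 and 208.9 CPM in control replicates 2, 5, 6 and 7 and to 74.4, 88.2, 120.0 and 98.5 CPM in MAARS gapmeR replicates 9, 11, 13 and 15. Fibroblast and endothelial markers, mostly Col1a1, summed to 320.0, 237.4, 388.0 and 532.8 CPM and to 375.6, 488.2, 626.2 and 403.5 CPM. Both lists were higher in control replicates 6 and 7 than in 2 and 5 and highest in MAARS gapmeR replicate 13, but in control they were highest in replicate 7 and lowest in replicate 5. Between groups, none of their 12 tested genes was called. Their part in the spread of the GBP genes was not tested. Without control replicates 6 and 7 together the median log2 fold change of the members was -2.36, and without replicates 2 and 5 it was -2.96.

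Genes with the most similar profile over the 8 libraries were found by the root mean square difference, in log2 CPM relative to the control mean, from the mean profile of the members. This distance includes the difference between groups that chose the members, so it mainly finds genes with a fall of similar size. It is given as a description. The 6 nearest were Phf11b (0.108), Phf11d (0.179), Cmpk2 (0.180), Ifi209 (0.201), Fgl2 (0.205) and Tnfsf10 (0.227). Cmpk2 is a mitochondrial nucleotide kinase, Ifi209 belongs to the Ifi200 family of DNA-binding proteins, and Tnfsf10 encodes the death ligand TRAIL. Phf11b, the nearest, was at 123.0, 161.8, 225.3 and 203.0 CPM in control and at 17.2, 27.2, 32.5 and 19.7 CPM in MAARS gapmeR libraries. Among the members, Gbp5 (0.115), Gbp2 (0.150) and Gbp3 (0.198) lay closest to the mean profile, and Gbp9 (0.922), Gbp7 (0.989) and Gbp4 (1.81) farthest. Genes outside the family that lay nearer to it numbered 147 for Gbp9, 172 for Gbp7 and 1619 for Gbp4.

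The interferon genes examined were hardly detected. These were 10 genes and included only some of the alpha interferon genes. Of the 10, 7 had 0 counts in all 8 libraries, the others had at most 2 counts in any library, and none passed the filter on low counts. A count of 0 allows up to 3 counts, or 0.156 CPM in the smallest library, for counting error only. Differences between the groups in the transcripts of these 10 genes were therefore not detectable at this depth.

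Receptors and their JAK kinases changed little. Of the 7 tested, 3 fell, 1 rose and 3 were not called, with a median log2 fold change of -0.12. For this list and those below, the shares over all genes tested were 24.0% called lower and 21.3% called higher. Ifnar1, a subunit of the type I receptor, rose by 0.29 on the log2 scale (edgeR adjusted p = 0.000649). Ifngr2, a subunit of the interferon-gamma receptor, fell by 0.22 (adjusted p = 0.00279) and Jak2, the kinase bound to it, fell by 0.42 (adjusted p = 0.00189). Jak1 was at the threshold (-0.12, adjusted p = 0.05) and lost its call under several alternatives. The values of Ifngr1, Ifnar2 and Tyk2 were 0.19, -0.12 and -0.09 and did not pass. Without control replicate 2, 5 of the 7 were called lower, and without MAARS gapmeR replicate 11, 2 were called higher.

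Transcription factors of interferon signalling were mostly lower. Of 11 tested, 10 were called lower and none higher, with a median of -1.25. Stat2 and Irf9, members of the ISRE-binding complex, fell by 1.52 (edgeR adjusted p = 1.12e-05) and 0.71 (adjusted p = 0.00024). Irf7, an amplifier of type I interferon, showed the largest fall of the list, from 1047, 1200, 1603 and 1524 CPM to 59.3, 176.6, 237.7 and 109.8 CPM (-3.20, adjusted p = 3.05e-05). For Irf7, replicate 9 was lowest and replicate 13 highest of the MAARS gapmeR libraries, as for 6 of the 8 GBP genes. Irf1, which is needed for full GBP induction, fell by 0.68 (adjusted p = 0.00056), and Batf2, Nlrc5, Ciita, Stat3 and Irf8 fell as well, with log2 fold changes of -1.37, -1.29, -1.25, -0.38 and -0.21 (adjusted p between 1.8e-05 and 0.0242). Irf2 had a value of -0.14 (adjusted p = 0.0707). The call of Irf8 was lost without control replicate 6 and without MAARS gapmeR replicates 11 or 15.

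Of 13 inhibitors of interferon signalling, 5 fell and 2 rose, with a median of -0.03. Usp18, which blocks the type I receptor and is itself interferon-inducible, fell by 2.32 (edgeR adjusted p = 2.45e-05), and the phosphatase gene Ptpn6 fell by 0.55 (adjusted p = 1.68e-05).

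**Figure D4:**
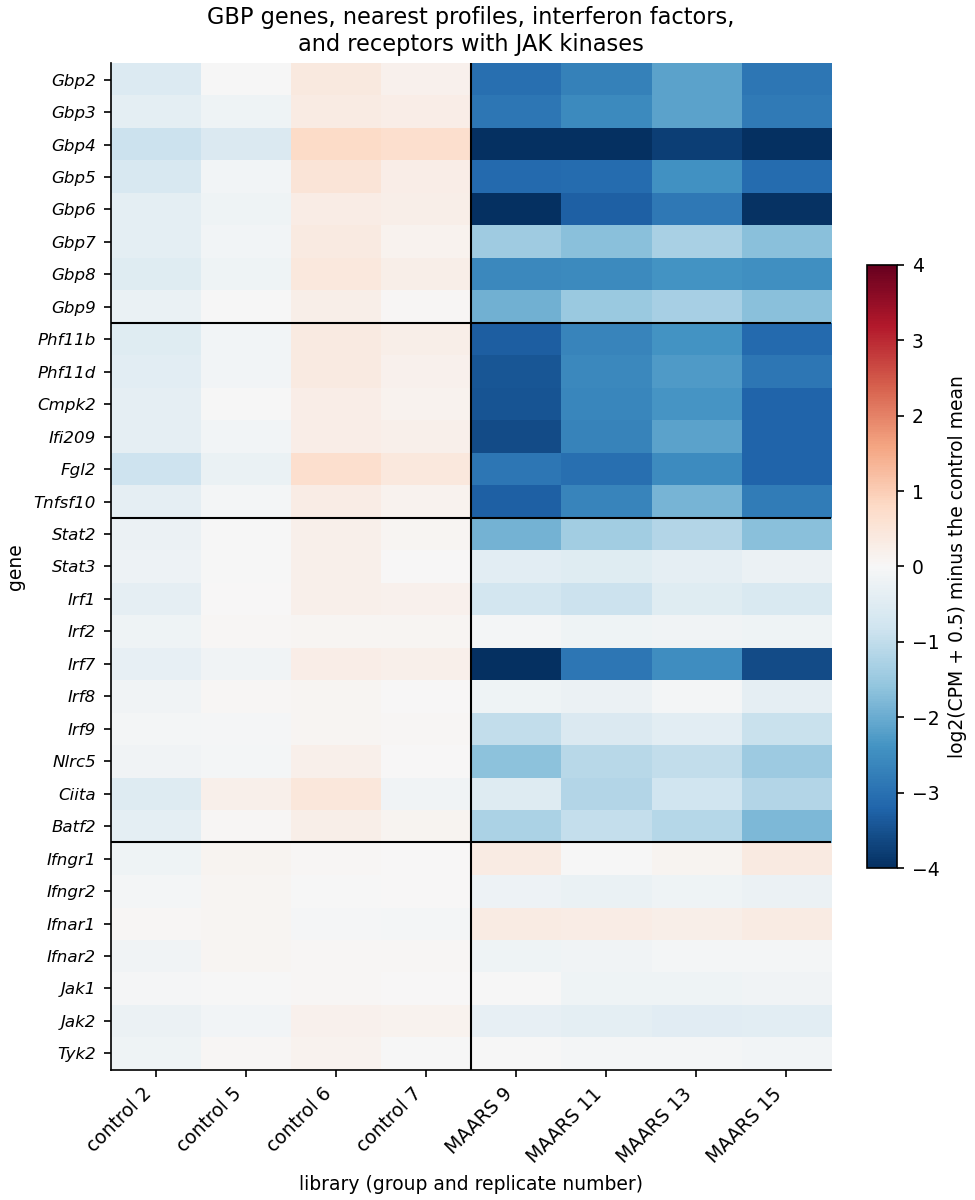
Heat map of log2(CPM + 0.5) minus the control mean in each library for the 8 GBP genes, the 6 nearest profiles, 10 interferon transcription factors and 7 receptors and JAK kinases, from top to bottom (blue lower, red higher, colours end at -4 and 4). The GBP genes and Irf7 are blue in all 4 MAARS gapmeR libraries, whereas receptors stay near 0.

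Among related GTPases, all 14 tested IRGs, the partners of GBPs on pathogen vacuoles, fell, with a median of -2.14. Tgtp2 fell by 3.63 on the log2 scale (edgeR adjusted p = 5.45e-06) and Gm12250, known as Irgb10, by 2.20 (adjusted p = 7.93e-06). Of 10 tested atlastins and other dynamin-type GTPases, 5 fell and none rose, with a median of -0.13. The interferon-inducible antiviral members Mx1 (-3.29, adjusted p = 8.27e-06) and Mx2 (-2.64, adjusted p = 5.03e-06) fell within the range of the GBP genes, and the other 3 called, genes of membrane fusion and fission, lay between -0.24 and -0.19.

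Lists that hold genes whose products act on or beside GBPs moved less. Of 9 tested genes of prenylation and CaaX processing, 2 fell and 2 rose (median 0.11). Only some of them attach or trim the lipid of prenylated GBPs, since the list also holds genes that serve Rab proteins. Both counts were near the shares over all genes tested, 24.0% and 21.3%. Chm, a Rab escort protein and so 1 of the genes that serve Rabs, was higher by 0.79 (edgeR adjusted p = 1.49e-05). Rce1, a CaaX protease, was lower at -0.28 (edgeR adjusted p = 0.00333). Of 17 genes listed for LC3 conjugation, which delivers GBPs to vacuoles, 6 fell and 6 rose (median -0.03). Among them were Atg7 (0.41, edgeR adjusted p = 8.21e-05) and Sqstm1 (-0.39, edgeR adjusted p = 4.28e-05). Sqstm1 encodes a receptor that binds LC3 and is not itself a conjugation enzyme. It overlaps Mrnip on the opposite strand over 17.3% of its exonic bases. Without control replicate 6, 3 of the 17 were called higher.

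Downstream, 10 of 13 inflammasome and pyroptosis genes fell and 1 rose (median -0.39). Casp4, the mouse caspase-11 that senses lipopolysaccharide on GBP coats, fell by 1.58 (edgeR adjusted p = 5.27e-06) and Casp1 by 0.83 (adjusted p = 1.51e-05). Of 7 genes of the NADPH oxidase, to which Gbp7 has been linked, 5 fell and 1 rose (median -0.41), among them Ncf4 (-0.60, adjusted p = 8.42e-06) and Rac2 (-0.45, adjusted p = 2.35e-05).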

How the data were processed

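RNA-Seq counts of 8 BMDM libraries were used, 4 with control gapmeR (replicates 2, 5, 6 and 7) and 4 with MAARS gapmeR (replicates 9, 11, 13 and 15), grouped by their labels. The deposited counts are whole reads or fragments per gene and are not normalized. Per the submitters' processing notes and the methods, the authors used Trimmomatic 0.36, STAR 2.5.2b and featureCounts of Subread 1.5.2 with GRCm38. The strand setting and the treatment of reads that map to several places are not given in the sources used here.

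In R 4.3.3, edgeR 4.0.16 was run with filterByExpr (minimum count 10, minimum total 15), TMM factors, glmQLFit and glmQLFTest, two-sided, with Benjamini-Hochberg adjustment over 13051 genes. A gene was called at an adjusted p under 0.05. Levels and fold changes are on the TMM scale, and error bars of fold changes are standard errors. Replicates of a group differed by a chi-square of 4.26 to 15.4 per gene, so none was counted as a duplicate. DESeq2 1.42.0, limma-voom (limma 3.58.1), RLE and upper-quartile factors, other filters, another prior count, longest-transcript lengths and single libraries left out were alternatives. Leaving out control replicates 6 and 7, or 2 and 5, together was added after the data had been seen. Gene positions and exon lengths were taken from GENCODE M21, which held 99.3% of the genes. The procedure was also run on simulated counts in which few genes changed, equally often up and down. Far more genes were called in these data, so that run does not test the normalization or the calls here.

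The members and all gene lists were chosen with earlier results of these data known. Genes named are the members, the other Gbp genes, MAARS, the tested receptors and transcription factors, the 2 genes of smallest p in each other list, the 6 nearest profiles and the neighbours of the clusters. Fcgr1 and the marker genes named singly were picked after their values were seen. Protein features were not analysed here. Some genes of the lists are counted but not reported here by name.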

Additional observations from a re-analysis of the deposited data

Results flagged for a closer look

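Of 126 groups of 4 libraries examined over 63 values, 4 held a library far from the other 3 by Dixon's test at the 95% level. At this level chance alone flags about 1 in 20 groups, so 4 flags are no more than that rate gives. MAARS gapmeR replicate 13 stood above the others for Gbp4 (1.79 CPM, against 0.390 to 0.517) and for Gbp5 (11.2 CPM, against 6.76 to 7), the library that was also highest for the other members. Gbp10 was at 0.0433 CPM in MAARS gapmeR replicate 15, which is 1 count, and at 0 in the other 3, so any count there would have been flagged. Irf2 was at 66.8 CPM in control replicate 2, below 77.6 to 79.5 CPM in the other control libraries.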

How the results depend on the processing

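No paired analysis was possible because the replicate numbers of the groups (2, 5, 6 and 7 against 9, 11, 13 and 15) are not shared. The number of genes called, 5919, ranged from 5680 to 6001 over the other tools and filters, from 5097 to 5621 with single libraries left out, and was 4322 without control replicates 6 and 7. Upper-quartile factors moved the share of calls that were higher from 47.0% to 60.4%.

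Without control replicates 6 and 7, Gbp4, Gbp7 and Gbp8 had log2 fold changes of -4.57, -1.26 and -2.30. Shares of the summed level by longest transcript were 33.6% for Gbp2 in control, 25.0% and 21.3% for Gbp3 in control and MAARS gapmeR libraries, 3.03% for Gbp4 in control, 7.10% and 4.65% for Gbp5, 4.58% and 1.86% for Gbp6, and, in control, 11.5% for Gbp7 and 3.34% for Gbp8. The longer GAS motif occurred in 1 window of members in place of 2.

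With upper-quartile factors, log2 fold changes were 0.19 for Pdlim5 and 0.16 for Gtf2b, now called, 0.05 for Kyat3, and -0.12 for Pkn2 and -0.13 for Lrrc8b, no longer called. Voom gave 0.01 for Kyat3. With single libraries left out the neighbours ranged from -0.12 to 0.20 for Kyat3, from -0.37 to 0.15 for Unc5c, from -0.51 to -0.27 for Zfp951, from -0.22 to -0.15 for Lrrc8b and from -0.23 to -0.15 for Pkn2. Zfp951 was called without control replicate 5 or MAARS gapmeR replicate 15. The calls of Pkn2 were lost without control replicates 6 or 7 or MAARS gapmeR replicate 15, and those of Lrrc8b without control replicates 2 or 6 or MAARS gapmeR replicate 13.

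Of the lists, upper-quartile factors left 3 atlastins and dynamin-type GTPases lower and 1 higher, 2 receptors or kinases higher, and 1 prenylation enzyme lower and 4 higher, with medians of 0.04 for inhibitors, 0.04 for LC3 conjugation, 0.17 for prenylation and -0.35 for the NADPH oxidase. Without a filter 2 receptors or kinases were higher, RLE factors and DESeq2 each left 1 prenylation enzyme lower, and the fitted median of the other Gbp genes by voom, -5.79, is the value of Gbp10 and depends on the prior count. With single libraries left out, receptors and kinases called lower ranged from 2 to 5 (5 without control replicate 2) and higher from 1 to 2 (2 without MAARS gapmeR replicate 11), LC3 genes called higher from 3 (without control replicate 6) to 6, prenylation enzymes called lower from 1 to 2 with a median of 0.05 to 0.12, and the median of inhibitors from -0.07 to 0.00. The 1 prenylation enzyme was left by removing control replicates 5, 6 or 7 or MAARS gapmeR replicates 11, 13 or 15. The cause of these shifts was not tested. Depth limits the values of Gbp4, Gbp10 and Gbp11, which rest on 39 counts or fewer in each MAARS gapmeR library.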
